A study of Homo sapiens with 4 samples.

Results

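Long noncoding RNA (lncRNA) genes with measurable RNA were followed in LX-2 cells, a widely used human line derived from hepatic stellate cells, after transfection of the miR-6133-5p mimic or of miControl. A gene was included when GENCODE gives it the gene type lncRNA on GRCh37 and when its mean level over the 4 libraries was at least 2 CPM (counts per 1e+06 counts of the library). This rule gave 467 of the 12818 lncRNA genes in the count table, of which 7179 had at least 1 count in any library. The genes were thus chosen by their mean level over all libraries, not by the comparison between the groups. Nevertheless, 59 of the 467 reached a mean of 2 CPM in only 1 of the groups, and for those the rule favours a difference. Just inside the threshold were *MOCS2-DT* and *ALOX12-AS1*, and just outside were *HOXB-AS1* and *TP53TG1*, each with a mean of 1.99 CPM.

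Both groups received the same dose of small RNA, 20 nM, and both were treated with 5 ng/mL of rhTGF-β1, so that every library comes from TGF-β-stimulated cells and none from resting cells. RNA was taken 24 h after rhTGF-β1, and polyA+ RNA was sequenced as 2 libraries per group, called replicates 1 and 2. LX-2 is a single immortalized line, and nothing in the labels says that the replicates were separate cultures, so that p-values measure the spread between these libraries, which may be technical. In what follows, the level of a gene is its CPM with the library total scaled by the TMM factor of edgeR, and a log2 fold change compares miR-6133-5p with miControl.

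An lncRNA is a transcript that is not translated into a protein, and such RNAs act in the nucleus as parts of nuclear bodies or at chromatin, act in the cytoplasm as binding sites for proteins and miRNAs, or serve mainly as precursors. Many host genes carry snoRNAs, which guide the chemical modification of ribosomal RNA, in their introns, and others carry miRNA hairpins that Drosha cuts out of the primary transcript. Antisense and divergent lncRNAs lie on the strand opposite a coding gene, and their level often goes with that of the neighbour. In stellate cells, lncRNAs are mostly studied as modulators of TGF-β signaling and of collagen production.

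Of the 467 genes, 25 had a miRNA gene of the GENCODE annotation inside their span on the same strand and 23 had a snoRNA gene there, which makes 45 host genes. The annotated small RNA set is not complete, and the RefSeq gene table placed further small RNA genes in host genes such as *SNHG1* and *MIR22HG*, for 34 miRNA hosts and 33 snoRNA hosts in all. Some entries are predicted copies of small RNA families with no established product, such as the snoU13 copy in *LINC01630* and the clone-named miRNA in *LINC01705*. The mature miRNAs (RefSeq) whose hosts were called lower or higher are shown first, because they are products that the host transcripts can give. Calls are as defined with the first comparison. With them are examples of those that share a seed within or across hosts. Other shared seeds, within hosts such as *MIR17HG* and across *MEG8* and *MEG9*, are not shown. The mature miRNAs were not measured here, as the libraries were made from polyA+ RNA. Capitals mark the seed, bases 2 to 8 from the 5′ end.

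hsa-miR-31-5p (in *MIR31HG*, called lower): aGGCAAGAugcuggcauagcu
hsa-miR-770-5p (in *MEG3*, called lower): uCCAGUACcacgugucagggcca
hsa-miR-4712-5p (in *GABPB1-AS1*, not called): uCCAGUACaggucucucauuuc
hsa-miR-2392 (in *MEG3*, called lower): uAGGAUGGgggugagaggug
hsa-miR-4449 (in *DANCR*, called lower): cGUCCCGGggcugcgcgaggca
hsa-miR-4435 (in *CYTOR*, called lower, and in *MIR4435-2HG*, not called): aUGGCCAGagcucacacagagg
hsa-miR-568 (in ENSG00000259976, called higher): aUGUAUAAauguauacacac
hsa-miR-3199 (in *TTC28-AS1*, called higher): aGGGACUGccuuaggagaaaguu
hsa-let-7a-5p (in *MIR100HG* and *MIRLET7BHG*): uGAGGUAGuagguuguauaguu
hsa-let-7b-5p (in *MIRLET7BHG*): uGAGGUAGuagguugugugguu
hsa-miR-4458 (in *MIR4458HG*): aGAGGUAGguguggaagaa
hsa-miR-221-3p (in *MIR222HG*): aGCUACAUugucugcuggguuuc
hsa-miR-222-3p (in *MIR222HG*): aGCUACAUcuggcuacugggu

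The CCAGUAC seed is shared by miR-770-5p, whose host *MEG3* was called lower, and miR-4712-5p, whose host *GABPB1-AS1* had a log2 fold change of −0.073. The last 5 sequences fall into 2 seed families, GAGGUAG and GCUACAU, and the latter lies within the single host *MIR222HG*. The GAGGUAG seed is carried by 3 of the mature miRNAs of these host genes and is spread over 3 hosts, which gives the comparison of *MIR100HG*, *MIRLET7BHG* and *MIR4458HG* below.

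Counts on genes summed to between 51862006 and 93811213 per library, and the 467 genes held between 0.662% and 0.689% of them. Each gene had at least 41 counts in every library, and 412 had at least 100. Among 12 stellate or myofibroblast markers, 3 were below 1 CPM in every library (*HAND2*, *LRAT* and *DES*), and the summed level of the list was 5883 to 6348 CPM in miControl and 3344 to 3713 CPM in miR-6133-5p, with *COL1A1*, *COL1A2*, *ACTA2*, *TAGLN* and *LOX* called lower. Those 5 called markers were 50% of the 10 tested on the list, beside 5.54% of all tested genes called lower. Of the 6 hepatocyte markers 5 were below 1 CPM, as were all 4 leukocyte markers, and the 3 endothelial markers found in the table. The summed level of 4 cholangiocyte markers was 83.9 to 85.3 CPM in miControl and 36.8 to 39.9 CPM in miR-6133-5p, a sum made up mostly of *SOX9* (called lower), with *KRT19* and *EPCAM* below 1 CPM. *KRT7*, the remaining marker, went the other way, from 3.62 and 4.44 CPM to 6.61 and 7.08 CPM (0.76, not called). The part of these markers in the results was not tested. The share of mitochondrial counts was 2.505% and 2.561% in miControl against 3.60% and 2.89% in miR-6133-5p, and its part in the results was not tested. In bulk RNA, fewer cells that express a gene and less RNA per cell cannot be told apart.

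The first comparison asked which lncRNA genes differed between miR-6133-5p-treated and miControl-treated cells. More of them were lower than higher. The call used the thresholds of the study, 0.01 for the adjusted p-value and 0.8 for the absolute log2 fold change, in edgeR's quasi-likelihood test with Benjamini–Hochberg adjustment over the 18252 genes tested. All 467 lncRNA genes were among the tested genes, and 56 were called lower, 11.99%, against a background of 5.54% of all tested genes and 6.53% of tested protein-coding genes. The 14 genes called higher were 2.998%, close to the background of 2.9% of all tested genes and 3.54% of coding genes. The comparison with coding genes of the same minimum level gave the same order, with 7.35% of 11060 called lower and 3.83% called higher. The 59 genes that reached 2 CPM in only 1 group held 14 of the lower and 3 of the higher calls. Over the other 408 genes 42 were called lower and 11 higher, 10.3% and 2.70%.

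The median log2 fold change was −0.13 over the lncRNA genes and 0.026 over all tested genes, and single genes ran from −2.56 to 2.01. The groups did not overlap for 313 of the lncRNA genes, 67.0%, beside 64.4% of all tested genes and 69.6% of tested coding genes, so that the number of genes with separate groups was near the background. Genes with a symbol and genes known only by an Ensembl ID or clone name were unlike in direction. Of the 344 with a symbol 47 were called lower and 7 higher, with a median of −0.19, whereas of the 123 without a symbol 9 were lower and 7 higher, with a median of 0.049. By level, the 117 genes with the highest means had 18 called lower and 5 higher, 15.4% and 4.27%. The 117 with the lowest means had 8 and 2, 6.84% and 1.71%, beside 5.54% and 2.9% of all tested genes.

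With library totals alone in place of TMM factors, 36 lncRNA genes were called lower and 31 higher, and the median of all tested genes was then 0.19. The median of the lncRNA genes was below that of all tested genes by 0.16 under both scalings. A change of scaling moves all genes by nearly the same amount, so this difference could hardly change. Without replicate 1 of miControl the counts fell to 32 lower and 3 higher, without replicate 2 of miControl 9 were called higher, and without replicate 2 of miR-6133-5p they were 80 and 26. In each of the 4 fits that left out a library, 29 of the lower genes and 3 of the higher genes kept their call.

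**Figure D1:**
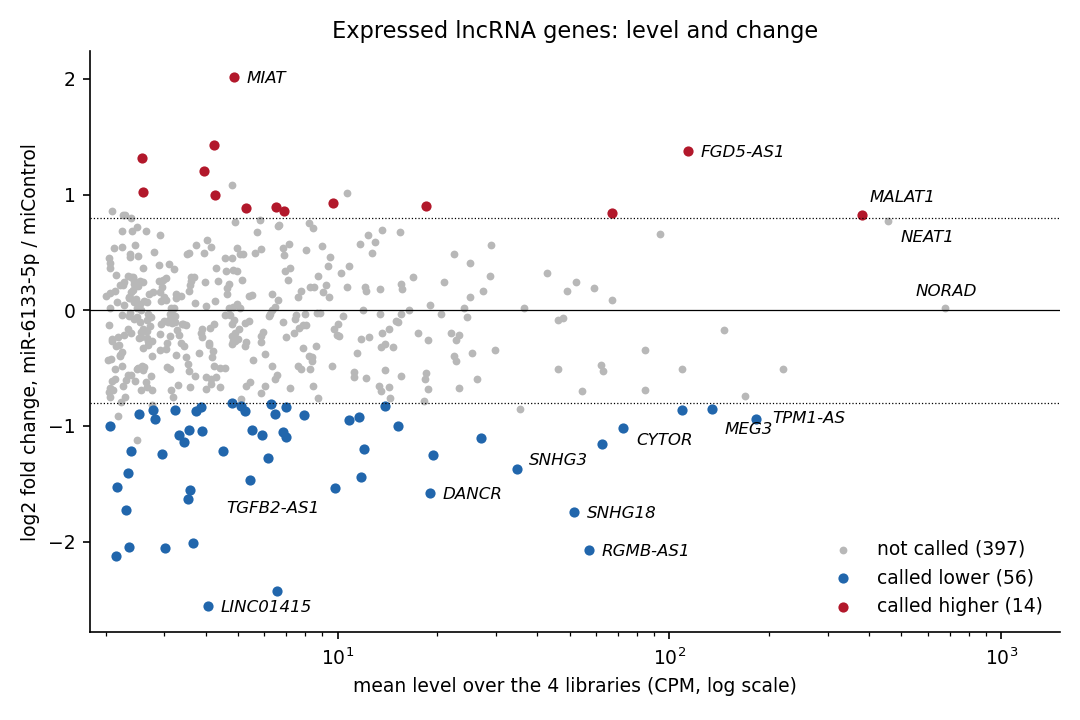
Log2 fold change of miR-6133-5p against miControl (vertical axis) for the 467 lncRNA genes against their mean level over the 4 libraries in CPM (horizontal axis, log scale). Blue points are the 56 genes called lower, red points the 14 called higher, grey points the 397 not called, and dotted lines stand at the fold threshold of 0.8 in both directions. Called genes occur at all levels, and *NORAD*, the most abundant, lies at 0.015.

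The largest falls were in lncRNAs of low level, intergenic or beside a coding gene, and in a few abundant ones. The 12 largest falls with a symbol were taken from called genes whose groups did not overlap. Of these 12, 7 were below 2 CPM in miR-6133-5p and entered the set only through their miControl level, *LINC01415* among them. *LINC01415* (chr18:53443958-53448953, minus strand, GRCh37, no coding gene within its span) had 6.79 and 7.69 CPM in miControl and 1.19 and 1.26 CPM in miR-6133-5p. It fell by 2.56 on the log2 scale (SE 0.18, adjusted p = 5.01e-07, edgeR), to 0.169 times its miControl level. *RGMB-AS1* (chr5:98105322-98109173, minus strand), antisense to the gene of the BMP co-receptor RGMB, had 96.3 and 95.4 CPM in miControl against 18.2 and 27.3 CPM. The groups were far apart although the miR-6133-5p libraries differed from each other, and the log2 fold change was −2.07 (SE 0.16, adjusted p = 7.04e-07, edgeR).

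*SNHG18* (chr5:9546282-9550837, plus strand), a snoRNA host that starts beside the semaphorin gene *SEMA5A*, had 80.1 and 83.7 CPM in miControl and 26.8 and 22.2 CPM in miR-6133-5p. Its log2 fold change was −1.74 (SE 0.12, adjusted p = 2.99e-07, edgeR). *DANCR* (chr4:53578492-53589790, plus strand), known as a suppressor of differentiation and as a host of a snoRNA, had 29.0 and 29.5 CPM against 10.1 and 9.55 CPM. In both genes the replicates lay close together, and *DANCR* fell by 1.58 (SE 0.11, adjusted p = 5.69e-07, edgeR).

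Several other genes of the 12 largest falls were below 10 CPM in every library, whereas *TGFB2-AS1*, given below, was not. *LINC02454* had 3.52 and 3.75 CPM in miControl against 0.627 and 1.01 CPM, and *LINC01705* had 5.90 and 6.32 CPM against 1.33 and 1.66 CPM. *SWINGN* (5.21 and 5.89 against 1.36 and 2.17 CPM) and *LINC01630* (7.38 and 9.03 against 2.80 and 3.14 CPM) fell by 1.63 and by 1.46 on the log2 scale. In each of them both miR-6133-5p libraries were below both miControl libraries, which the choice of the 12 largest falls required. *MYOSLID*, described as a lncRNA of smooth muscle cells under the control of serum response factor, had 3.62 and 2.97 CPM against 1.13 and 1.15 CPM, a log2 fold change of −1.53 whose adjusted p was 0.000246 in edgeR and 0.0129 without replicate 1 of miControl. *TENM3-AS1* (−1.72) behaved alike, with an adjusted p of 0.000352 that became 0.0130 without that library. Among genes without a symbol, ENSG00000266709, chosen after its values were seen, had the lowest value, −2.43 on the log2 scale, with 11.7 and 11.4 CPM in miControl against 2.25 and 2.06 CPM.

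Only 7 genes with a symbol were called higher. *MIAT* (chr22:27042375-27072438, plus strand), a nuclear lncRNA first described by its association with myocardial infarction, had 1.85 and 1.89 CPM in miControl and 6.10 and 8.97 CPM in miR-6133-5p. It rose 4.03-fold, with a log2 fold change of 2.01 (SE 0.21, adjusted p = 1.08e-05, edgeR). Its miControl level was below 2 CPM, so that it entered the set only through the group where it was high. *FGD5-AS1* (chr3:14961854-14989931, minus strand) was the largest rise among abundant genes, from 61.1 and 61.7 CPM to 165 and 154 CPM, 2.60-fold and 1.38 on the log2 scale (SE 0.10, adjusted p = 6.91e-07, edgeR). Its coding neighbour *FGD5* had between 0.0918 and 0.131 CPM in the 4 libraries, near the level of a few counts.

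*LINC01224* (13.1 and 12.1 against 24.6 and 22.7 CPM) and *MALAT1* made up the other abundant genes of this direction. *LINC01224* kept its call without each library in turn. *PAXIP1-DT* (0.99), *TTC28-AS1* (0.93) and *LINC02057* (0.89) were called with all 4 libraries, but lost the call without replicate 1 of miControl, with adjusted p = 0.0271, 0.0133 and 0.0103 in edgeR. *PAXIP1-DT* and *LINC02057* also lost it without replicate 2 of miControl (adjusted p = 0.0116 and 0.0227), and *TTC28-AS1* without replicate 2 of miR-6133-5p, where its log2 fold change was 0.79.

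**Figure D2:**
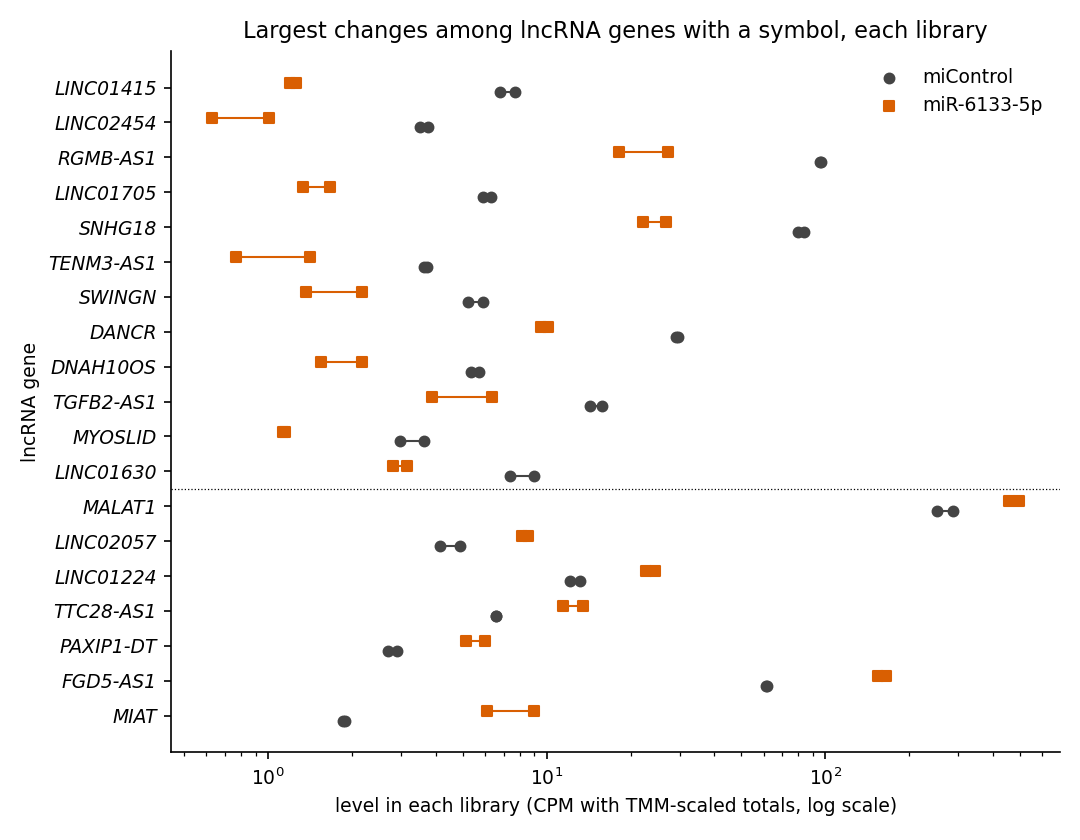
Level of each of the 12 largest falls (above the dotted line) and of all 7 rises (below it) among lncRNA genes with a symbol, in CPM with TMM-scaled totals on a log axis. Each point is a library, grey circles for miControl and orange squares for miR-6133-5p, and a line joins the replicates of a group. Only genes whose groups did not overlap were eligible, so the lack of overlap in these 19 genes is set by the choice. The replicates of miR-6133-5p lie farther apart than those of miControl in genes such as *RGMB-AS1* and *TGFB2-AS1*.

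Of 14 lncRNAs written down for TGF-β signaling and fibrosis, 11 were in the set. Over the 13 tested, *TGFB2-AS1*, *LINC00941*, *MEG3* and *FENDRR* were called lower and *MALAT1* higher, 4 and 1, with a median of −0.69, beside 5.54% lower and 2.9% higher over all tested genes. *TGFB2-AS1* (chr1:218517532-218519378, minus strand), antisense to the gene of the TGF-β2 ligand, had 15.8 and 14.3 CPM in miControl and 3.88 and 6.38 CPM in miR-6133-5p. Its log2 fold change was −1.54 (SE 0.19, adjusted p = 4.99e-05, edgeR). *LINC00941*, reported as a promoter of TGF-β signaling in cancer cells, had 38.7 and 36.8 CPM against 16.6 and 18.5 CPM and fell by 1.10 (SE 0.11, adjusted p = 9.32e-06, edgeR). The libraries of *LINC00941* were close within each group, whereas those of *TGFB2-AS1* were not in miR-6133-5p.

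*MEG3*, a maternally expressed lncRNA known to restrain p53 degradation and to bind chromatin at TGF-β pathway genes, had 180 and 172 CPM in miControl against 81.0 and 114 CPM. It was called lower at −0.85 (SE 0.14, adjusted p = 0.000505, edgeR), but without replicate 1 of miControl its adjusted p was 0.024, without replicate 1 of miR-6133-5p the fold change was −0.64, and with library totals alone it was −0.69, each of which ended the call. *FENDRR*, a lncRNA of mesoderm development, had 3.54 and 3.29 CPM against 1.27 and 1.64 CPM, −1.22 on the log2 scale, with an adjusted p of 0.00112 in edgeR and 0.0269 without replicate 1 of miControl. *GAS5* (−0.69), *SNHG7* (−0.59) and *MIR100HG* (−0.51) had adjusted p-values below 0.01 and fold changes within the threshold. *PVT1* (−0.16) and *HOTAIR* (0.56) did not pass the p-value threshold. The same held for *DNM3OS* (−1.41, adjusted p = 0.0139, edgeR) and *CARMN*, which were below 2 CPM, and *H19* had no counts in any library.

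Of 6 lncRNAs listed for nuclear architecture 4 were in the set, and *MIAT* and *MALAT1* were called higher. Over the 5 tested this was 40% higher and 0% lower, beside 2.9% and 5.54% of all tested genes. *MALAT1* (chr11:65265111-65275544, plus strand), a component of nuclear speckles, had 252 and 287 CPM in miControl and 457 and 497 CPM in miR-6133-5p, a rise of 0.83 on the log2 scale (SE 0.11, adjusted p = 9.19e-05, edgeR). The value stood just past the threshold, and it was 0.72 with adjusted p = 0.0202 without replicate 1 of miControl and 0.75 without replicate 2 of miR-6133-5p. *NEAT1* (chr11:65190245-65213011, plus strand), its neighbour on the chromosome and the scaffold of paraspeckles, had 319 and 343 CPM against 558 and 569 CPM. At 0.77 (SE 0.10, adjusted p = 9.17e-05, edgeR) it was just short of the fold threshold, and with library totals alone it was past it at 0.93. The values of *MALAT1* and *NEAT1* are gene counts from polyA+ RNA, which leave out RNA without a polyA tail and do not separate isoforms.

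None of the 11 tested genes of paraspeckle proteins was called by edgeR or DESeq2, 4 had an unadjusted p below 0.05, and their median was −0.0085. *KCNQ1OT1*, the long antisense transcript of an imprinted potassium channel locus, had 17.9 and 19.7 CPM in miControl against 8.08 and 17.1 CPM, so that replicate 1 of miR-6133-5p alone stood well apart. Its log2 fold change of −0.57 had an adjusted p of 0.0957, and without replicate 2 of miR-6133-5p it was −1.23 with adjusted p = 2.13e-08 in edgeR. *TUG1*, listed with these genes, was not in the set because GENCODE types it as a coding gene, and it had a log2 fold change of −0.50. Over the 19 genes of nuclear RNA decay (exosome subunits and the adaptors that bring noncoding RNA to them), 1 was called higher, *C1D* at 0.92. This was 5.26%, beside 2.9% of all tested genes. The median was 0.27, beside 0.026 over all tested genes, and 17 of the 19 had positive values. An unadjusted p below 0.05 in edgeR was found for 10 with positive and 0 with negative values.

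Of 5 lncRNAs listed for binding RNA and proteins in the cytoplasm 4 were in the set, and *DANCR* and *CYTOR* were called lower. Over the 5 tested this was 40% lower and 0% higher, beside 5.54% and 2.9% of all tested genes. *NORAD* (chr20:34633540-34638940, minus strand), which sequesters Pumilio proteins, was the most abundant gene of the set. It had 645 and 695 CPM in miControl and 659 and 695 CPM in miR-6133-5p. Its groups overlapped, and the log2 fold change was 0.015 (SE 0.10). *OIP5-AS1* also differed by less than the test could call, at 151 and 160 against 131 and 145 CPM (−0.17, adjusted p = 0.256, edgeR). *CYTOR*, known to bind cytoplasmic proteins and to act in cell migration, had 102 and 96.1 CPM in miControl against 49.6 and 48.2 CPM and fell by 1.02 (SE 0.10, adjusted p = 7.52e-06, edgeR). *MIR4435-2HG* is a duplicated locus on the same chromosome with a copy of the same miRNA gene, so that the split of reads between them is uncertain, and it had 213 and 216 against 124 and 132 CPM, −0.74, within the fold threshold.

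Per kb of annotated exon, *NORAD* was also highest of the genes with a symbol with a mean of 125 CPM per kb over the 4 libraries. *PRR11-AS1* followed at 76.4, *SNHG1* at 55.9, *TPM1-AS* at 55.3, *SNHG32* at 47.2 and *MALAT1* at 35.8 CPM per kb. *SNHG18* and *RGMB-AS1* came next at 25.4 and 25.1 CPM per kb. Below *PRR11-AS1* the order depended on the group. In miControl, *RGMB-AS1* and *SNHG18* had means of 40.6 and 39.1 CPM per kb and stood above *MALAT1* at 25.8, whereas in miR-6133-5p they had 9.65 and 11.7 CPM per kb and *MALAT1* had 45.7. Without *NORAD*, *NEAT1* and *MALAT1*, the summed level of the set was 5767 and 5799 CPM in miControl and 4836 and 4702 CPM in miR-6133-5p. With them it was 6982 and 7124 CPM against 6511 and 6463 CPM. On this scale the miR-6133-5p libraries were below the miControl libraries in both sums. As a share of the unscaled library total, however, the whole set was higher in miR-6133-5p, at 0.689% and 0.683% against 0.662% and 0.670%. The direction of the sum that includes *NORAD*, *NEAT1* and *MALAT1* thus depended on the scaling. The smallest exact two-sided p that 2 against 2 libraries allow is 0.333.

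Of 10 lncRNAs of imprinted loci 6 were tested and *MEG3* was called lower, 16.7% of those tested beside 5.54% of all tested genes. *MEG8* and *MEG9*, from the same chromosome 14 cluster, had log2 fold changes of −0.60 and −0.51 (adjusted p = 0.053 and 0.0845, edgeR), whereas *SNHG14*, of the Prader-Willi locus, had 0.66 and passed only the p-value threshold. With library totals alone *SNHG14* was also called higher, at 0.82. *GNAS-AS1* had 0.31. Among 13 tested lncRNAs of HOX and developmental loci, *FENDRR* and *WT1-AS* were called lower, 15.4% beside 5.54% of all tested genes. The call of *WT1-AS* (5.31 and 4.83 against 2.29 and 3.33 CPM, −0.84) was lost without either miControl library, with adjusted p = 0.0912 without replicate 1 and 0.0297 without replicate 2, at −0.62 without replicate 1 of miR-6133-5p, and at −0.67 with library totals alone. *HAGLR*, from the HOXD cluster, had 16.7 and 16.3 against 10.9 and 10.1 CPM (−0.66), which passed only the p-value threshold. Of the 6 tested lncRNAs induced by p53 none was called by edgeR or DESeq2, and *LINC-PINT* had 0.12. The 3 with an unadjusted p below 0.05 were *NEAT1* (0.77), *PURPL* (2.03) and *MIR34AHG* (−1.82), and the last 2 were below 1 CPM in every library. Of the 3 tested for interferon and inflammation none was called by either tool. The 2 with an unadjusted p below 0.05 had positive values, *PSMB8-AS1* at 1.02 and *MIR3142HG* at 0.63, and neither was in the set. *MIR155HG*, the host of miR-155, had −0.41.

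The snoRNA hosts had a lower median than the set. Of 23 snoRNA hosts 6 were called lower and none higher by edgeR or DESeq2, 26.1% lower against the background of 5.54%. Positive values with an unadjusted p below 0.05 were found in 2 of them. The median log2 fold change was −0.51, whereas the 422 genes that host neither kind had 47 lower, 13 higher and a median of −0.12. The summed level of the 23 snoRNA hosts was 713 and 702 CPM in miControl against 530 and 485 CPM in miR-6133-5p. With the hosts added from RefSeq, 8 of 33 were lower and none higher, with the same median. In no alternative was a snoRNA host called higher except with library totals alone, where *SNHG14* was, and under that scaling the median was −0.35.

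*SNHG3* (chr1:28832492-28837404, plus strand), host of a snoRNA of ribosomal RNA processing and neighbour of the chromatin gene *RCC1*, had 52.9 and 49.5 CPM in miControl and 21.7 and 17.8 CPM in miR-6133-5p. It fell by 1.38 (SE 0.12, adjusted p = 2.42e-06, edgeR), whereas *RCC1*, with which it shares 5.92% of its exon bases on the same strand, had −0.42. *SNHG12* had 21.4 and 20.0 against 11.8 and 8.90 CPM, a fold change of −1.01 (SE 0.14, adjusted p = 0.000154, edgeR). The other snoRNA hosts called lower were *SNHG18*, *DANCR*, *LINC01630* and *MIR31HG*, and RefSeq adds *SNHG8* (−1.05) and *SNHG29* (−0.87). *SNHG8* lost its call without replicate 1 of miControl, at −0.90, and *SNHG29* without replicate 2 of miR-6133-5p, at −0.78.

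Of 19 genes with an SNHG symbol, which stands for small nucleolar RNA host gene, 5 were called lower, 26.3% beside 5.54% of all tested genes. These 5 are among the snoRNA hosts named above, so they are not further calls. Of the 19 genes, 13 had a negative fold change, beside 8702 of the 18252 tested genes. *SNHG1*, the most abundant, had 261 and 260 CPM against 196 and 171 CPM, −0.51 on the log2 scale (SE 0.11, adjusted p = 0.00302, edgeR). *GAS5*, known to be degraded when its short reading frame is translated, had 111 and 101 against 72.0 and 58.8 CPM, and *ZFAS1* had 70.7 and 66.4 against 45.1 and 39.2 CPM. Both passed the p-value threshold and stayed within the fold threshold, and *GAS5* was past it, at −0.86, without replicate 1 of miR-6133-5p. *SNHG6* (0.71), *SNHG14* (0.66) and *SNHG15* (0.25) had positive values and *SNHG17* had 0.016, so that the host genes were not uniform.

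**Figure D3:**
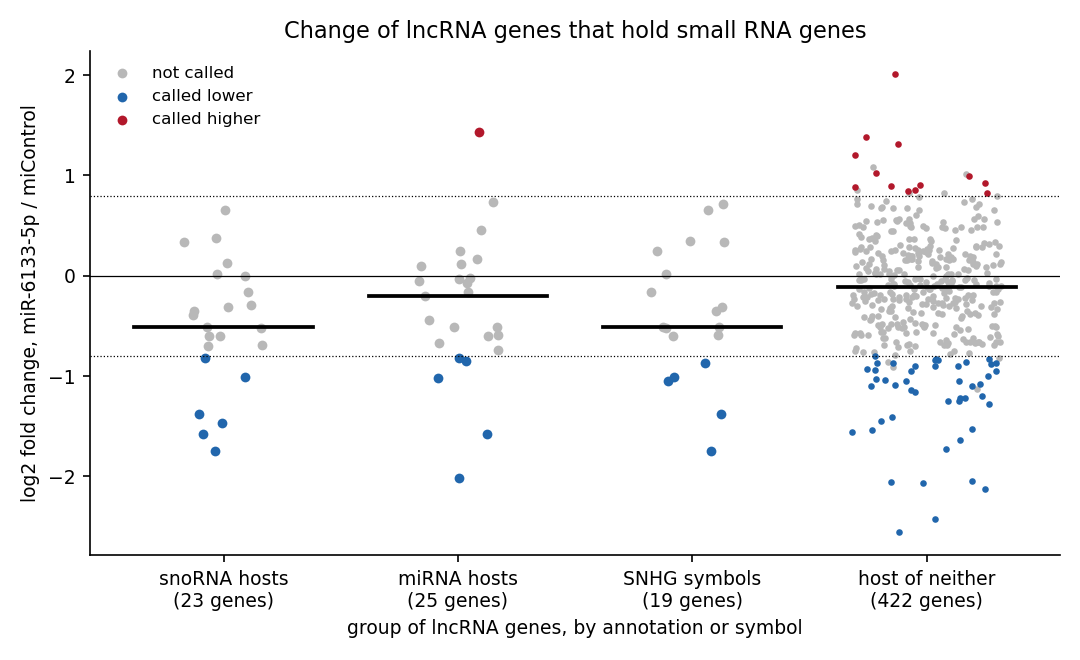
Log2 fold change of miR-6133-5p against miControl (vertical axis) for snoRNA hosts, miRNA hosts, genes with an SNHG symbol, and genes that host neither kind of small RNA. Each point is a gene, coloured by its call, points are spread sideways for visibility, black bars are medians (−0.51, −0.20, −0.51 and −0.12) and dotted lines are the fold threshold. The first 3 groups share members, and no snoRNA host lies above the upper line.

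Of 25 miRNA hosts 5 were called lower, 20.0% beside 5.54% of all tested genes, and 1 higher, 4% beside 2.9%, with a median of −0.20. Without replicate 1 of miControl 3 were lower and 0 higher, without replicate 1 of miR-6133-5p the median was −0.30, without replicate 2 of miR-6133-5p it was −0.36, and with library totals alone 3 were lower and 2 higher with a median of −0.037. The counts were 5 lower and 2 higher of 34 with RefSeq, where the median was −0.12. The summed level of the 25 hosts was 799 and 800 CPM in miControl and 511 and 539 CPM in miR-6133-5p. *LINC01705*, *DANCR*, *CYTOR*, *MEG3* and *MIR31HG* were the hosts called lower. *MIR31HG*, host of miR-31, had 7.99 and 8.24 against 4.96 and 4.30 CPM (−0.82, adjusted p = 0.00114, edgeR). It lost the call with library totals alone, at −0.65, and without each of 3 libraries in turn, with adjusted p = 0.021 without replicate 1 of miControl and 0.016 without replicate 2, and with −0.73 without replicate 2 of miR-6133-5p. The host called higher, ENSG00000259976, had 1.57 and 2.86 against 7.77 and 4.33 CPM (1.43, lost without replicate 1 of miControl at 1.06). It lies wholly in exons of the coding gene *ZBTB20* on the same strand, so that its reads cannot be told apart from those of *ZBTB20*, which had 0.54.

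The hosts of the GAGGUAG seed did not move together. *MIR100HG*, which carries let-7a, miR-100 and miR-125b and is induced by TGF-β in several epithelial lines, had 50.1 and 59.3 CPM in miControl against 41.0 and 35.9 CPM, −0.51 (SE 0.12, adjusted p = 0.00514, edgeR). *MIRLET7BHG*, with let-7a and let-7b, had 5.15 and 4.66 against 8.41 and 7.95 CPM, 0.74 (SE 0.15, adjusted p = 0.00196, edgeR), and *MIR4458HG* had −0.030. Neither of the first 2 was past the fold threshold, and their groups did not overlap. *MIR222HG*, host of miR-221 and miR-222 with the GCUACAU seed, had 20.7 and 23.9 against 15.5 and 14.1 CPM (−0.59, adjusted p = 0.00249, edgeR). *DLEU2* (0.16), *MIR23AHG* (0.12), *MIR17HG* (−0.20) and *MIR22HG* (−0.085) did not pass the p-value threshold. Of the 2 genes of the microprocessor, which cuts miRNA hairpins from such hosts, *DROSHA* was called lower at −1.26 and *DGCR8* had 0.086, and their part in the values of the host transcripts was not tested.

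The last comparison set the lncRNA genes beside the coding genes at the same locus. The strand setting of the counting is not given in the sources used here, and where counting ignored strand, reads of genes that overlap on opposite strands cannot be told apart. Of the 467 genes, 183 shared exon bases with a coding gene on the opposite strand, 51 shared them on the same strand, 56 lay in a coding gene's span without shared exon bases, 38 started within 1 kb of a coding gene's start without overlap, and 139 did none of these. Genes sharing exon bases on the opposite strand had 27 called lower and 3 higher, 14.8% and 1.64% beside 5.54% and 2.9% of all tested genes, with a median of −0.23. Those free of any coding gene had 19 lower and 6 higher, 13.7% and 4.32%, with a median of −0.043. Those sharing bases on the same strand had 1 lower and 2 higher, 1.96% and 3.92%. Over the 233 genes without any shared exon base, 28 were lower and 9 higher, 12.02% and 3.86%, and the median was −0.085.

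Of the 35 lower genes whose coding neighbour was tested, 10 had a neighbour called lower, 28.6%, beside 5.12% of 254 neighbours of genes that were not called and 6.53% of all tested coding genes. *RGMB-AS1* (−2.07) stood beside *RGMB* at −1.61, whose level went from 1157 and 1150 CPM to 384 and 371 CPM, and shared 15.4% of its exon bases with it. *TGFB2-AS1* (−1.54) stood beside *TGFB2* at −1.55 (315 and 330 against 111 and 109 CPM), with 37.95% of its exon bases shared. *SNHG18* (−1.74) shares no base with *SEMA5A*, which had 618 and 646 against 150 and 198 CPM, −1.86. *TGFB2-AS1* lay nearest to its neighbour, and *RGMB-AS1* had the larger fall of its pair. For *SNHG18* the annotated exons do not overlap those of its neighbour.

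Further pairs with both genes called lower, named after their values were seen except for the first 2, were *DNAH10OS* with *DNAH10* (−1.52), *MYOSLID* with the transcription factor gene *KLF7* (−1.08), *WNT5A-AS1* (−1.28) with *WNT5A* (−1.14), *NR2F1-AS1* (−1.25) with the nuclear receptor gene *NR2F1* (−1.14), *GDNF-AS1* (−0.90) with *GDNF* (−1.23), ENSG00000266709 with *HS3ST3B1* (−2.11), and ENSG00000230733 (−0.90) with *FBXL18* (−0.89). Of these, *WNT5A-AS1* lost its call without replicate 1 of miControl, at −1.24, and ENSG00000230733 without replicate 1 or 2 of miControl, at −0.93 and −0.91, and without replicate 2 of miR-6133-5p, at −0.72. *MYOSLID* has the same limit for replicate 1 of miControl. *TTC28-AS1* was the single called gene whose neighbour was called in the other direction, rising by 0.93 beside *TTC28* at −1.05 (45.0 and 44.2 against 18.3 and 24.6 CPM). *LINC00941* fell by 1.10 beside *CAPRIN2* at 0.063.

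For 37 genes at least 50% of the exon bases were shared with a coding gene, and for these the lncRNA count is least certain. Of them 3 were called lower and 2 higher, 8.11% and 5.41% beside 5.54% and 2.9% of all tested genes. *TPM1-AS* (chr15:63338233-63341586, minus strand), with 78.9% of its exon bases shared with the tropomyosin gene *TPM1* on the opposite strand, had 249 and 239 CPM in miControl against 128 and 126 CPM, −0.94 (SE 0.10, adjusted p = 1.50e-05, edgeR), and *TPM1*, at 1901 and 1848 against 1246 and 1169 CPM, had −0.63. *TPM1-AS* lost its call with library totals alone, at −0.78. *PRR11-AS1*, wholly within exons of *PRR11*, had −0.057 beside −0.013, and *PP7080*, with 85.4% shared on the same strand with *SLC9A3*, had −0.0025 beside 0.58. In the 23 genes with such overlap on the opposite strand, 20 had the sign of the coding gene, and the median absolute difference of their log2 fold changes was 0.21. With such overlap on the same strand, 8 of 11 had the same sign and the median absolute difference was 0.52. In the 36 divergent pairs with a tested neighbour, which share no base, 17 had the same sign and the median absolute difference was 0.28.

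**Figure D4:**
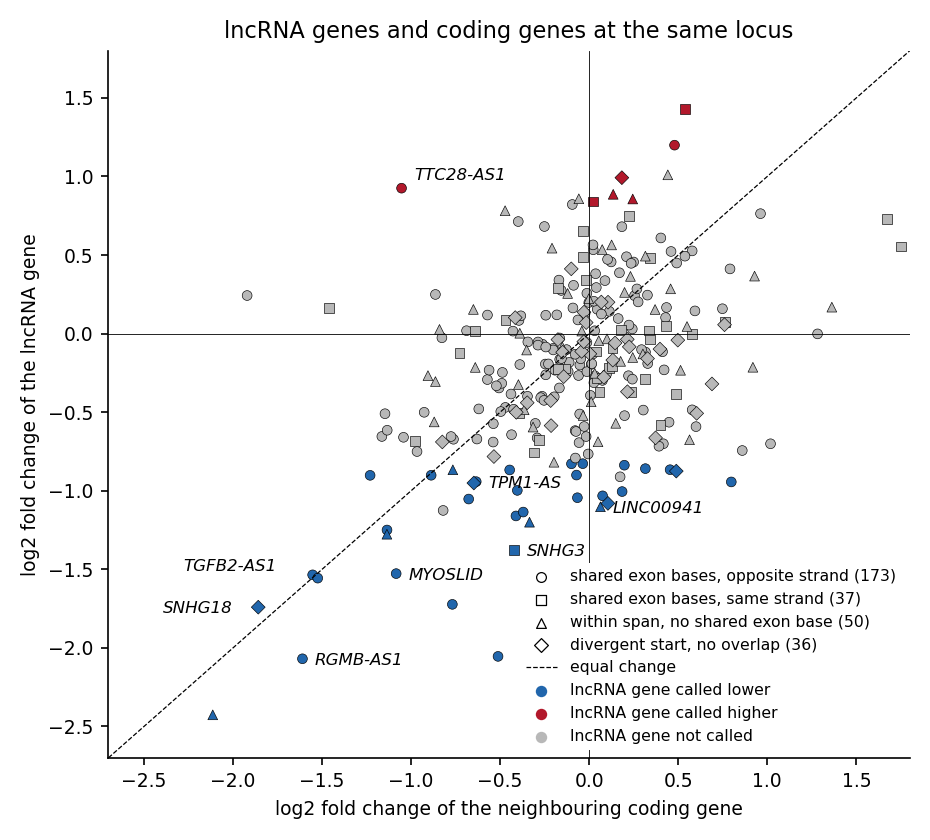
Log2 fold change of lncRNA genes (vertical axis) against that of the coding gene at the same locus (horizontal axis), for the 296 lncRNA genes with a tested coding neighbour. The shape of a point gives the kind of overlap, its colour the call of the lncRNA gene, and the dashed line equal change. *SNHG18*, *TGFB2-AS1* and *DNAH10OS* lie near the line, *TTC28-AS1* lies in the opposite quadrant, and *SNHG3* and *LINC00941* lie below the line.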

How the data were processed

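The authors deposited raw counts per Ensembl gene for each library, with no normalization, and a mapping summary with read pairs per library. Per the paper's methods, reads of 150 bases per mate were aligned to GRCh37 (hg19) with STAR through GeneData Profiler Genome, and the submitters' processing notes name STAR 2.5.3a, featureCounts and Subread 1.6.4. The kit is a stranded mRNA kit. The strand setting and the annotation release of the counting are not given in the sources used here. There were 1.68 to 1.70 counts per uniquely mapped pair, so mates were counted separately and counts are not independent molecules. A count of 3 corresponded to 0.0303 to 0.0610 CPM.

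Gene types, exons, host genes and coding neighbours came from GENCODE release 44 lifted to GRCh37, and further host genes from RefSeq, which matched 324 of the 467 genes. Of 63677 rows, 8012 were not in this annotation and held 0.675% to 0.723% of the counts. Low genes were removed with filterByExpr, and TMM scaling and the glmQLFit model came from edgeR 4.0.16 (R 4.3.3), without a term for replicate number. The common biological coefficient of variation was 0.105. Standard errors were derived from the F statistic. DESeq2 1.42.0 was an alternative. On simulated data of 18252 genes, 100 genes were changed at each size. The edgeR test recovered 96 at 4-fold and 84 at 2.5-fold, with 1 false call, and DESeq2 recovered 85 and 72, with 0 false calls. The simulation gave every gene the common coefficient of variation, alike in both groups. Spread in the real libraries differs between genes and groups, so these numbers need not hold for them. Tables were made in Python 3.11.15 with pandas 2.3.3 and numpy 2.4.6, and plots with matplotlib 3.10.9.

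The genes and lists were chosen with earlier results of these data known. Named with a symbol were the 12 largest falls and up to 12 largest rises among called genes with separate groups, called hosts, the 8 highest levels per kb, members of the role lists, those nearest the threshold and up to 3 with at least 50% shared exon bases. Other genes named serve a comparison and were chosen after their values were seen. Other settings tried were DESeq2, RLE size factors, unscaled totals, the table unfiltered or limited to genes of at least 10 counts throughout, a replicate block, glmTreat, an adjusted p-value of 0.05, each library left out, other minimum levels and genes without shared exon bases. Hosts by RefSeq were added after seeing the data. The list of nonsense-mediated decay genes is not reported here.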

Additional observations from a re-analysis of the deposited data

How the results depend on the processing

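The counts of 56 lower and 14 higher lncRNA genes were 55 and 14 with DESeq2, 56 and 14 with RLE size factors, and 61 and 19 with the replicate block. No called lncRNA gene changed sign in any refit. These genes were chosen by their fold change in the same libraries that the refits use, so a change of sign was unlikely. The replicate numbers did not pair the libraries (correlation of deviations 0.049), and the block kept all 56 and 14 calls and changed no named gene's call. With glmTreat, 14 were lower and 2 higher (miRNA hosts 2 and 0, all tested genes 326 and 80), and 17 of the 50 named genes lost their call. With library totals alone, 36 were lower and 31 higher (miRNA hosts 3 and 2, snoRNA hosts 1 higher, all tested genes 977 higher), the medians were 0.034 for lncRNA genes, −0.037 for miRNA hosts, −0.35 for snoRNA hosts and 0.19 for all tested genes, and the lower share of calls was 53.7% in place of 80.0%, or 42.1% in place of 65.6% over all tested genes. Minimum levels of 1 and 5 CPM gave 73 and 31 lower and 21 and 8 higher, with medians of −0.097 and −0.16, and genes without shared exon bases gave 28, 9 and −0.085. Without each library in turn, the lncRNA counts ranged from 32 to 80 lower and 3 to 26 higher with medians of −0.17 to −0.13, miRNA hosts from 3 to 6 lower and 0 to 1 higher with medians of −0.36 to −0.24, snoRNA host medians from −0.52 to −0.49, and all tested genes from 293 to 587 higher with medians of −0.0050 to 0.018 (−0.0038 without replicate 1 and −0.0050 without replicate 2 of miR-6133-5p). The median of all tested genes was 0.057 with DESeq2, 0.010 with at least 10 counts in every library and 0.078 with no filter. With hosts by RefSeq, chosen after seeing the data, 2 miRNA hosts were higher and their median was −0.12. The cause of these shifts was not tested. The seed-match comparison was not run. At this depth, low genes such as *MIAT* rest on 91 and 103 counts per miControl library.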

Other observations

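The lncRNA genes varied more between the miR-6133-5p libraries than between the miControl libraries. In miR-6133-5p 14 of 467 differed by more than 2-fold between the replicates, and in miControl none did. Among 12029 tested genes with a mean of at least 2 CPM, lncRNA genes included, these counts were 54 and 3. The share beyond 2-fold in miR-6133-5p was thus larger for the lncRNA genes, which made up 14 of the 54. Over all genes above a small count, the chi-square per degree of freedom between replicates was 50.2 in miR-6133-5p and 14.3 in miControl. Such a value grows with depth, and both miR-6133-5p libraries were deeper, so these 2 values do not compare the spread alone. The SNHG host genes deviated together, since 18 of 19 were lower in replicate 2 than in replicate 1 of miR-6133-5p, with a median log2 ratio of −0.27, beside 14 of 19 and −0.028 in miControl. Over all 467 genes, 251 were lower in replicate 2 of miR-6133-5p, with a median of −0.041.

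The widest gap was in ENSG00000260257, with 2.95 and 3.01 CPM in miControl against 10.2 and 2.64 CPM, and among genes with a symbol in *HOXB-AS2*, an antisense gene of the HOXB cluster. These genes and those after them were chosen after their values were seen. *HOXB-AS2* had 4.78 and 5.27 CPM in miControl and 1.70 and 5.35 CPM in miR-6133-5p, so that replicate 2 was at the miControl level and replicate 1 was not. *AFAP1-AS1*, studied as a promoter of migration in tumour cells, had 1.28 and 3.14 CPM in miR-6133-5p against 2.36 and 2.79 CPM in miControl, and *LOXL2-AS1* had 2.23 and 4.65 CPM against 5.65 and 5.38 CPM. *SLC16A4-AS1* went the other way, with 19.4 and 8.61 CPM against 6.53 and 7.27 CPM, a log2 fold change of 1.01 that was not called (adjusted p = 0.0128, edgeR). In these 5 genes the spread within miR-6133-5p exceeded 2-fold.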
